A study of Mus musculus with 9 samples.

Results

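The 10 genes described here are 4 Notch receptors (Notch1, Notch2, Notch3 and Notch4), 3 of their ligands (Jag1, Jag2 and Dll4) and 3 target genes (Hes1, Hey1 and Nrarp). They were chosen by gene symbol, with earlier results of these data known, and all 10 were among the 55401 genes of the table of counts. Whole-liver RNA of female mice was sequenced in 3 groups of 3 livers, which were healthy livers, untreated HCC and miR-22-treated HCC. HCC is hepatocellular carcinoma, and here it was induced with the oncogenes N-Ras V12 and myristoylated AKT.

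Healthy livers came from wild-type mice that had received neither plasmids nor virus. The protocol that all samples share gives an age of 6 weeks for the mice when obtained, and no age or time of collection is given for the healthy livers. Both HCC groups were wild-type mice given the oncogene plasmids with the sleeping beauty transposase by hydrodynamic injection into the tail vein, and then adeno-associated virus serotype 8 (AAV8) at 1 week. Untreated HCC received the blank virus and miR-22-treated HCC the virus carrying miR-22, and all 6 livers were collected 5 weeks after the oncogenes and 4 weeks after the virus. Healthy livers therefore differed from HCC livers in plasmids, virus and possibly age together, and these cannot be told apart. The strain is FVB/N in the protocol and in the study's methods but C57BL/6 in the sample labels. The AKT oncogene was driven by the EF1α promoter, and the injection protocol also lists a β-catenin plasmid, which the series' design does not name for these livers. Total counts ran from 16664659 to 23908392 per library. The samples are separate livers of each group, so p-values measure the spread between these livers alone.

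Notch receptors are single-pass membrane proteins that are activated by ligands on a neighbouring cell. Binding exposes the receptor to ADAM proteases and then to γ-secretase, and the freed intracellular domain enters the nucleus, where it joins the DNA-binding protein RBPJ and a Mastermind coactivator to switch on genes such as those of the Hes and Hey families and Nrarp. In the liver the pathway is known for bile duct formation, with Jag1 and Notch2 at its centre, and for the patterning of vessels, where Dll4, Notch1 and Notch4 act in endothelium.

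In untreated HCC 7 of the 10 genes were called higher than in healthy livers and none lower. These were Notch3, Notch4, Jag1, Jag2, Hes1, Hey1 and Nrarp. The call required an adjusted p under 0.05 (edgeR's quasi-likelihood test, Benjamini-Hochberg adjustment over the 15717 genes tested) and a fold change over 1.5. Of all tested genes 22.7% were called higher and 18.1% lower in this comparison. Since the 10 genes were chosen with earlier results known, their counts beside all tested genes, here and below, are a description and no test. The untreated HCC livers lay above the healthy ones without overlap for 8 of the 10 genes, these 7 and Notch2, where 33.9% of all tested genes did so. In miR-22-treated HCC 4 of the 10 genes (Notch3, Jag1, Hes1 and Nrarp) were called lower than in untreated HCC and none higher, against 5.47% and 8.32% of all tested genes. Without untreated replicate 3 or without treated replicate 3, 1 gene was called lower, Jag1. The treated livers lay below the untreated ones without overlap for 6 of the 10 genes, these 4 with Notch2 and Jag2, where 19.6% of all tested genes did so. The plot of log2 fold changes shows both comparisons for each gene.

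Jag2, Hey1 and Nrarp reached the count minimum of the filter in 0 of 3 healthy livers and entered the test through the HCC livers, where they were high. Of the 7 genes that reached it in every liver, 4 were called higher in untreated HCC and 3 lower after treatment. Their median log2 fold change was 0.96 in untreated HCC against healthy livers and -0.58 in miR-22-treated against untreated HCC, beside 0.01 and 0.002 over all tested genes. The 3 comparisons among the groups share livers and are not independent of each other. In whole liver, fewer cells of a type and less RNA per cell cannot be told apart. The paper reports a lower ratio of liver to body weight after miR-22 in this model. A smaller share of tumor tissue in treated livers and lower RNA within that tissue cannot be told apart either.

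**Figure D1:**
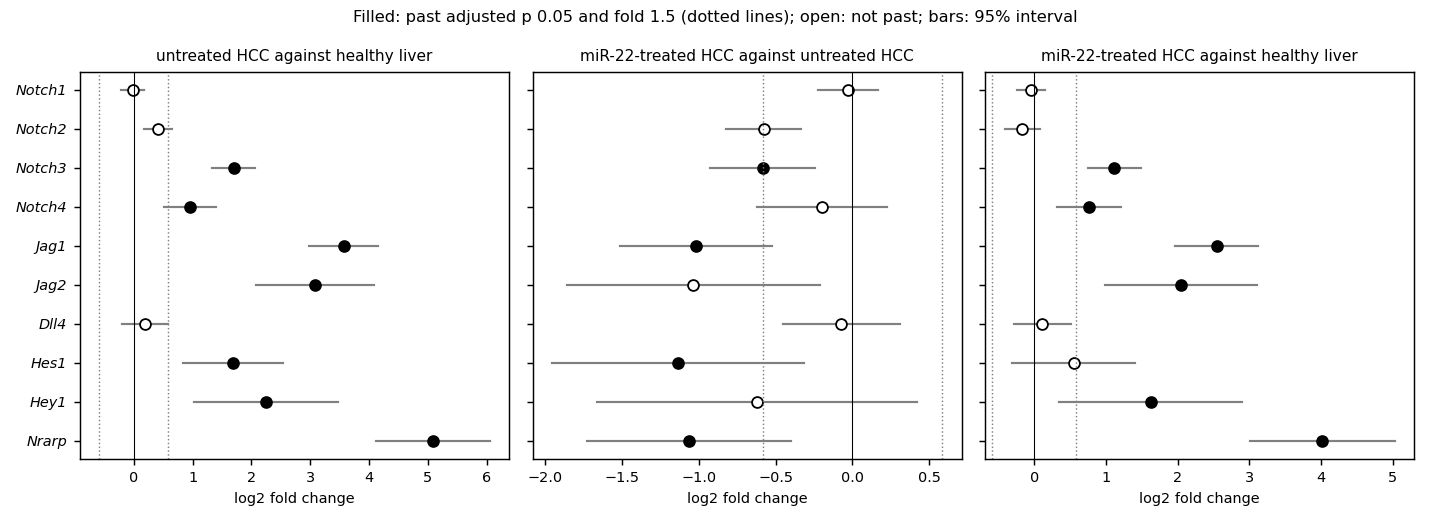
Log2 fold change of each of the 10 genes (x axis, bars for the 95% confidence interval) in 3 panels, 1 per comparison with its own x range, with filled points where the gene was called and dotted lines at a fold change of 1.5. Nrarp and Jag1 lie furthest to the right in untreated HCC against healthy livers, at 5.08 and 3.57, while Notch1 and Dll4 lie near 0 in every comparison.

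The first question is how the 4 receptors differed between healthy livers and HCC. Normalized counts are counts scaled by library size and TMM factor, and are given for healthy replicates 1, 2 and 3 and for HCC replicates 2, 3 and 4 in that order. Notch2, the receptor that bile duct formation depends on, had 1551, 1527 and 1281 normalized counts in healthy livers, 1834, 2071 and 1886 in untreated HCC and 1467, 1115 and 1294 in miR-22-treated HCC. The 3 untreated HCC livers lay above all 6 other livers, and the treated livers overlapped the healthy ones. Notch2 was 1.33-fold higher in untreated HCC (log2 fold change 0.41 ± 0.11 SE, adjusted p = 0.00722) and 1.49-fold lower after treatment (-0.58 ± 0.11, adjusted p = 0.00328), both under the fold threshold of 1.5 and therefore not called. The second of these passed the threshold without untreated replicate 2 (-0.62), untreated replicate 4 (-0.59) or treated replicate 2 (-0.68), and also with DESeq2 (-0.61, adjusted p = 3.49e-05), with its size factors in edgeR (-0.61, adjusted p = 0.00259) and with only the 2 groups (-0.59, adjusted p = 0.009).

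Notch3, the receptor known from vascular smooth muscle and other mural cells, had 78.1, 106 and 76.7 normalized counts in healthy livers, 280, 299 and 270 in untreated HCC and 217, 161 and 186 in miR-22-treated HCC. The 3 groups did not overlap, with the treated livers between the other 2 groups. Notch3 was 3.25-fold higher in untreated HCC than in healthy livers (log2 fold change 1.70 ± 0.17 SE, adjusted p = 3.13e-06). It was 1.5001-fold lower after treatment, just past the threshold (-0.59 ± 0.16, adjusted p = 0.0177), and remained 2.17-fold above healthy livers (adjusted p = 0.000326). The call after treatment was lost without untreated replicate 2 (adjusted p = 0.0562), untreated replicate 3 (0.0726) or treated replicate 3 (0.0826), and without treated replicate 4 the log2 fold change was -0.58, under the fold threshold.

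Notch4, a receptor of endothelial cells, had 78.1, 88.0 and 108 normalized counts in healthy livers, 153, 220 and 163 in untreated HCC and 155, 127 and 183 in miR-22-treated HCC. Both HCC groups lay above the healthy livers and overlapped each other. Notch4 was 1.95-fold higher in untreated HCC (log2 fold change 0.96 ± 0.20 SE, adjusted p = 0.00138). The difference after treatment was -0.20, with a 95% confidence interval of -0.62 to 0.23. Treated livers were 1.70-fold above healthy ones (adjusted p = 0.0116), a call that was lost without healthy replicate 1 (adjusted p = 0.0509) or treated replicate 4 (0.0503). The call was also lost with the replicate number as a block (adjusted p = 0.11).

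Notch1, which acts in many tissues, had 746, 694 and 646 normalized counts in healthy livers, 725, 671 and 668 in untreated HCC and 634, 708 and 684 in miR-22-treated HCC. All 3 groups overlapped. Its log2 fold change was -0.02 in untreated HCC against healthy livers, with a 95% confidence interval of -0.21 to 0.18, and -0.03 after treatment, with an interval of -0.22 to 0.17. Both intervals leave out a fold change of 1.5 in either direction.

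The treatment delivered miR-22, so its sequence and its matches in the 10 genes are shown here as a description. The mature strand miR-22-3p is given from RefSeq with the seed, bases 2 to 8, in capitals, followed by the only seed matches in the canonical 3′ UTRs of the 10 genes. These are 1 match in Notch1 (GRCm39, chr2:26348148-26348172, minus strand) and 1 in Notch4 (chr17:34807120-34807144, plus strand), each with the match in capitals.
miR-22-3p: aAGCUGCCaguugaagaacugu
Notch1: cctcctcagGGCAGCTctttctggc
Notch4: ggaaaatagGGCAGCTtcaagagga
The match searched is GGCAGCT on the transcribed strand, which 14% of 20858 canonical 3′ UTRs hold at least once. Neither Notch1 nor Notch4 was called in miR-22-treated against untreated HCC, and none of the 4 genes called lower after treatment had these letters in its canonical 3′ UTR. Other kinds of match were not searched, and whether miR-22 acts on any of these genes was not tested.

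**Figure D2:**
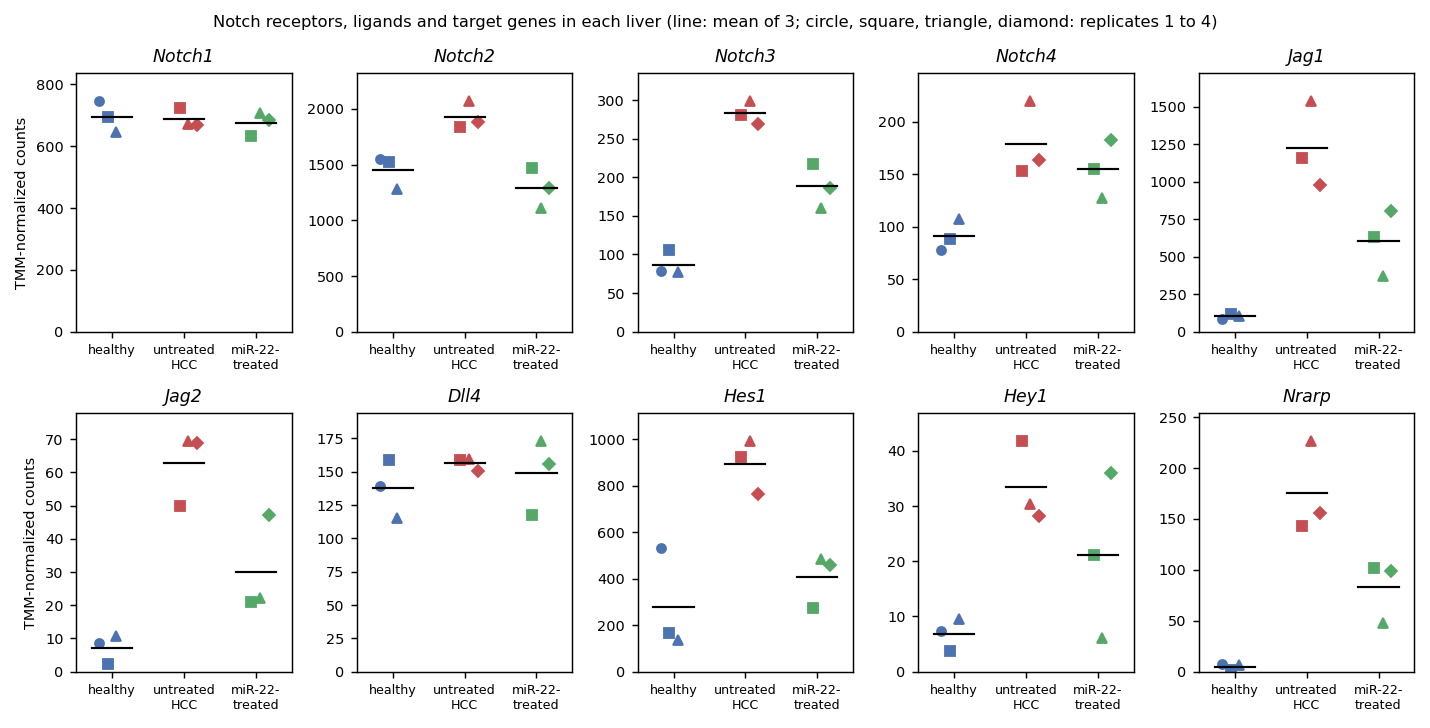
Normalized counts of each of the 10 genes in each of the 9 livers (linear axes from 0, 1 panel per gene), with 1 point per liver, shaped by replicate number, and a line at the mean of each group of 3. Untreated HCC lies highest without overlap for Notch2, Notch3, Jag1, Jag2, Hes1 and Nrarp, healthy replicate 1 stands apart in Hes1, and Notch1 and Dll4 overlap in all 3 groups.

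The second question is which ligands were present. Jag1, the ligand of the bile duct and of the portal vein mesenchyme, had 87.8, 116 and 106 normalized counts in healthy livers, 1161, 1539 and 978 in untreated HCC and 629, 372 and 805 in miR-22-treated HCC. The 3 groups did not overlap, and the treated livers lay between the others. Jag1 was 11.9-fold higher in untreated HCC than in healthy livers (log2 fold change 3.57 ± 0.27 SE, 95% confidence interval 7.93 to 17.8-fold, adjusted p = 3.6e-07). It was 2.03-fold lower after treatment (-1.02 ± 0.23, adjusted p = 0.00728) and still 5.85-fold above healthy livers (2.55 ± 0.27, adjusted p = 1.57e-05). All 3 calls of Jag1 held in each of the 14 alternatives run, with adjusted p up to 0.0407 for the comparison after treatment. The gene spans chr2:136923373-136958693 on the minus strand (GRCm39), and its canonical transcript has 26 exons.

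Jag2, a second Serrate-type ligand, had few reads in healthy livers. It had 8.54, 2.44 and 10.7 normalized counts there, 50.01, 69.5 and 68.8 in untreated HCC and 21.1, 22.3 and 47.1 in miR-22-treated HCC. The groups did not overlap, though treated replicate 4 lay close to the lowest untreated liver. Jag2 was 8.45-fold higher in untreated HCC than in healthy livers (log2 fold change 3.08 ± 0.46 SE, adjusted p = 0.000103). The difference after treatment was -1.04 ± 0.38 on the log2 scale and missed the threshold (adjusted p = 0.0674). It passed without treated replicate 4 (-1.53, adjusted p = 0.0154), with DESeq2 (0.0355) and without the filter on low counts, where the spread was taken as common to all genes (0.0227). Treated livers stayed 4.12-fold above healthy ones (adjusted p = 0.00598).

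Dll4, the Delta-type ligand of endothelial cells, was not called in any comparison. It had 139, 159 and 115 normalized counts in healthy livers, 159, 160 and 151 in untreated HCC and 118, 173 and 156 in miR-22-treated HCC. The groups overlapped in every comparison. The log2 fold change was 0.19 in untreated HCC against healthy livers (95% confidence interval -0.20 to 0.57) and -0.07 after treatment (-0.46 to 0.31).

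Levels of different genes were compared per kilobase of exon, since longer transcripts give more reads. The 4 receptors summed to 198 ± 15.6 (SD, n = 3) normalized counts per kb in healthy livers, 271 ± 15.3 in untreated HCC and 201 ± 18.0 in miR-22-treated HCC. Notch2 made up most of this level in each group, with 65.1% ± 1.63 (SD, n = 3) in healthy livers, 63.2% ± 0.90 in untreated HCC and 57.0% ± 2.82 in treated HCC. Notch1 was next, at 24.7%, 17.9% and 23.9%. Notch3 made up 4.88% in healthy livers, 11.6% in untreated HCC and 10.4% in treated HCC, and its range in healthy livers did not overlap those of the HCC groups.

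The order of the 3 ligands differed between healthy livers and HCC. Their summed level was 53.2 ± 6.12 (SD, n = 3) normalized counts per kb in healthy livers, 254 ± 49.4 in untreated HCC and 143 ± 36.1 in miR-22-treated HCC. Dll4 was the most abundant of the 3 in healthy livers, with 65.4% ± 4.50 (SD, n = 3) of their level per kb, and Jag1 made up 32.6% ± 3.91. In untreated HCC this order was turned, with 80.5% ± 3.14 for Jag1 and 15.9% ± 2.52 for Dll4. Treated HCC had 69.3% ± 10.6 of Jag1 and 27.8% ± 10.6 of Dll4, and Jag1 stayed above Dll4 in all 3 treated livers. Jag2 made up 2.01% to 3.55% on average in the 3 groups. No test was run on these shares.

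**Figure D3:**
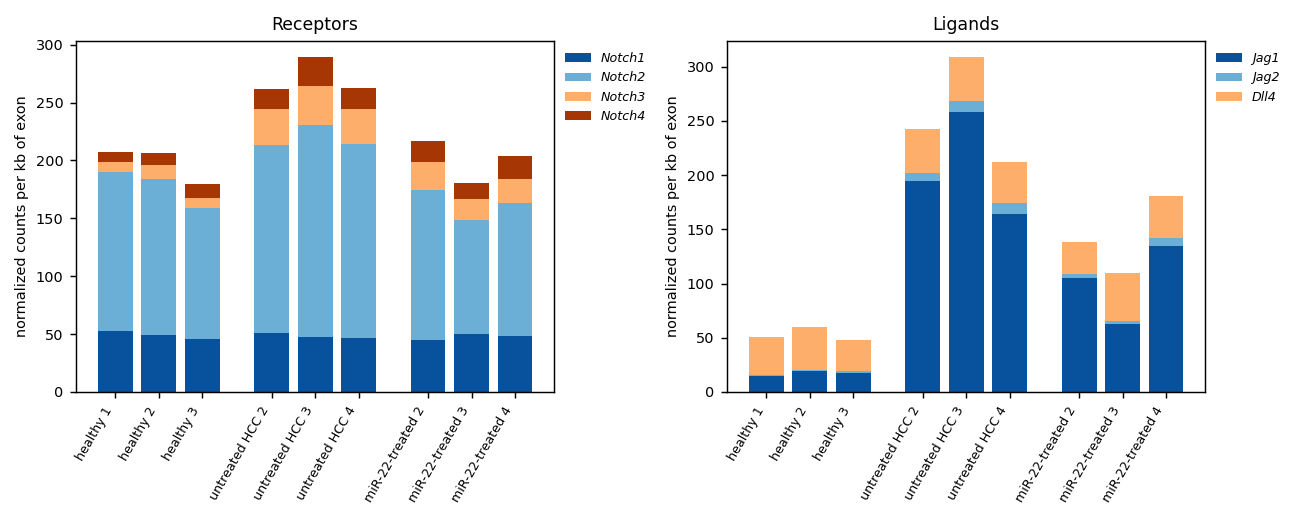
Level per kilobase of exon (normalized counts per kb, y axis from 0) of the 4 receptors and of the 3 ligands, with 1 stacked bar for each of the 9 livers. Notch2 is the largest share of every receptor bar, and Dll4 is the largest share of the ligand bars in the 3 healthy livers and Jag1 in the 6 HCC livers.

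The third question is how the target genes differed. Nrarp, a small ankyrin-repeat protein that is induced by Notch and acts back on the pathway, had 7.32, 1.22 and 6.40 normalized counts in healthy livers, 143, 227 and 156 in untreated HCC and 102, 48.3 and 98.7 in miR-22-treated HCC. The healthy livers held 6, 1 and 6 counts before scaling. The 3 groups did not overlap. Nrarp was 33.9-fold higher in untreated HCC than in healthy livers (log2 fold change 5.08 ± 0.45 SE, 95% confidence interval 17.3 to 66.4-fold, adjusted p = 1.22e-06), the largest fitted difference among the 10 genes. Its size rests on these few healthy counts. The log2 fold change was 4.65 without healthy replicate 2 and 5.41 without healthy replicate 1. Nrarp was 2.09-fold lower after treatment (-1.06 ± 0.31, adjusted p = 0.0243), a call lost without untreated replicate 3 (-0.84, adjusted p = 0.129) or treated replicate 3 (-0.80, adjusted p = 0.0911). The call was also lost with the replicate number as a block. Treated livers were still 16.2-fold above healthy ones (adjusted p = 3.7e-05). The gene has a single exon, at chr2:25070770-25073351 on the plus strand (GRCm39).

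Hes1, a transcriptional repressor and the best known Notch target, had 533, 166 and 139 normalized counts in healthy livers, 926, 994 and 763 in untreated HCC and 276, 485 and 458 in miR-22-treated HCC. All untreated HCC livers lay above the other 6, whereas healthy replicate 1 lay above all 3 treated livers and far above the other healthy livers. Hes1 was 3.22-fold higher in untreated HCC than in healthy livers (log2 fold change 1.68 ± 0.39 SE, adjusted p = 0.00255), and 2.54 on the log2 scale without healthy replicate 1. It was 2.20-fold lower after treatment (-1.14 ± 0.38, adjusted p = 0.0455). That call was lost when any 1 of the 6 HCC livers was left out (adjusted p from 0.0523 to 0.141) and with DESeq2 (0.0964), whereas without healthy replicate 1 the adjusted p was 0.00213. Treated against healthy livers gave 0.55 ± 0.39 (adjusted p = 0.305), and 1.40 without healthy replicate 1 (adjusted p = 0.00113).

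The genes whose pattern was most like that of Hes1 were found over the same 9 livers, so their level in healthy replicate 1 was part of the choice. Likeness was measured as the root mean square difference of centred log2 CPM over the 9 livers, among 10515 genes with at least 100 mean normalized counts. The nearest to Hes1 were Btg2 (0.257), Socs3 (0.339) and Jun (0.369). Jun, an AP-1 subunit and an immediate early gene, had 1433, 243 and 228 normalized counts in healthy livers, and Btg2, likewise induced early by stress and growth signals, had 671, 220 and 167. Socs3, a feedback inhibitor of cytokine signaling, had 202, 91.7 and 118. What set this liver apart was not tested.

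Hey1, a repressor related to Hes1 and known from endothelium, was low in every group. It had 7.32, 3.67 and 9.59 normalized counts in healthy livers, 41.8, 30.4 and 28.3 in untreated HCC and 21.1, 6.19 and 36.0 in miR-22-treated HCC. Untreated HCC lay above the healthy livers, and the treated livers spread over both ranges. Hey1 was 4.74-fold higher in untreated HCC (log2 fold change 2.25 ± 0.56 SE, adjusted p = 0.0044). The difference after treatment was -0.62 ± 0.48, with a 95% confidence interval of -1.67 to 0.42. It was -1.26 without treated replicate 4 and -0.22 without treated replicate 3, and was called in neither case (adjusted p = 0.0999 and 0.791). Treated livers were called 3.08-fold above healthy ones (adjusted p = 0.0472) although the groups overlapped. This call was lost without any 1 of 8 livers, the exception being treated replicate 3, with adjusted p from 0.0589 to 0.26, and also with DESeq2-type size factors in edgeR (adjusted p = 0.0503). The log2 fold change was 1.62 with all livers, 0.98 without treated replicate 4 and 2.03 without treated replicate 3.

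The promoters of the target genes are shown because RBPJ, the DNA-binding partner of the receptors, recognises the core TGGGAA. The search covered both strands from 250 bases before to 50 bases after each canonical start site (GRCm39, GENCODE). The stretches with matches were chr16:29884073-29884102 on the plus strand for Hes1 and chr3:8732467-8732496 on the minus strand for Hey1, and the core, or its reverse complement TTCCCA, is in capitals.
Hes1: tactgTGGGAAagaaagttTGGGAAgtttc
Hey1: gcactTTCCCAcggcccgcggcgcgtgcgg
Hes1 held 2 cores on the strand of the gene, whose first bases lay 49 and 35 bases before the start site, 14 bases apart. Hey1 held 1 core on the opposite strand. At least 1 core was found in 25.9% of 21770 protein-coding promoters and at least 2 in 4.1%, and the windows of the other 8 genes did not hold these letters. A match describes the sequence and is not evidence of binding.

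Treated livers were compared with healthy ones to see what remained of the difference. In miR-22-treated HCC 6 of the 10 genes (Notch3, Notch4, Jag1, Jag2, Hey1 and Nrarp) were called higher than in healthy livers and none lower, beside 16.9% of all tested genes called higher and 7.05% called lower. Of the 7 genes that reached the count minimum in every liver, 3 were called higher. Groups of livers did not overlap for 5 of the 10 genes, all higher in treated HCC, where 26.6% of all tested genes were higher without overlap. Hey1 was the called gene with overlapping livers.

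Other ligands and target genes were read for the same livers. Dll1, another Delta-type ligand, was lower in both HCC groups, with 271, 208 and 205 normalized counts in healthy livers, 121, 144 and 133 in untreated HCC and 114, 119 and 107 in miR-22-treated HCC. The HCC livers of both groups lay below the healthy ones, with log2 fold changes of -0.78 ± 0.16 SE (adjusted p = 0.000939) and -1.01 ± 0.16 (adjusted p = 0.000426). Dlk1, a fetal liver protein related to the ligands but without their receptor-binding domain, had 0, 0 and 1 counts in healthy livers. Its normalized counts were 23.6, 106 and 31.2 in untreated HCC and 7.77, 6.19 and 11.1 in miR-22-treated HCC. Dlk1 was therefore at least 15.3-fold higher in untreated HCC than a floor of 3 counts per library, and at least 2.38-fold higher in treated HCC. Replicate 3 carried much of the first bound, which was 7.81-fold without it. Dlk1 was lower after treatment (-2.64 ± 0.60, adjusted p = 0.00789), and by less without untreated replicate 3 (-1.69, adjusted p = 0.0493). Dll3 and Dner had 0 counts in all 9 livers, and Dlk2 was too low to be tested.

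Among the other Hes and Hey genes, Heyl was higher and Hes6 lower in untreated HCC. Heyl, known as a Notch3 target in mural cells, had 59.8, 52.6 and 45.8 normalized counts in healthy livers, 135, 138 and 113 in untreated HCC and 95.4, 39.6 and 93.2 in miR-22-treated HCC. It was 2.44-fold higher in untreated HCC (log2 fold change 1.29 ± 0.29 SE, adjusted p = 0.00196), and the difference after treatment was -0.75 (adjusted p = 0.0681). Hes6, a Hes family member that can counteract Hes1, had 1767, 1785 and 2274 normalized counts in healthy livers against 1044, 998 and 1059 in untreated HCC. It was 1.88-fold lower in untreated HCC (-0.91 ± 0.10, adjusted p = 1.09e-05), and the difference after treatment was 0.19 (adjusted p = 0.208). Hes3 and Hes5 had 0 counts in every liver, and Hes2, Hes7 and Hey2 were too low to be tested.

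The rest of the pathway was read from 7 lists holding 66 genes, these ligands and target genes included, of which 57 were tested. In untreated HCC 14 were called higher and 8 lower than in healthy livers, which is 24.6% and 14% of the 57, beside 22.7% and 18.1% of all tested genes. After treatment 5 were called higher and 3 lower than in untreated HCC, which is 8.77% and 5.26%, beside 8.32% and 5.47% of all tested genes. These shares lay near those of all tested genes in both comparisons. The median log2 fold changes of the 57 genes were 0.05 and -0.06. The plot of the pathway lists shows each gene.

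Of the 10 genes that cleave the receptor, Adam10 was called higher in untreated HCC and 4 γ-secretase genes (Psen2, Aph1a, Aph1b and Aph1c) were called lower. Psen2 fell under the fold threshold without untreated replicate 3 (log2 fold change -0.51). Adam10, the protease of the first ligand-dependent cleavage, had a log2 fold change of 0.78 ± 0.11 SE (adjusted p = 4.78e-05). Aph1c, a γ-secretase subunit, had 498, 549 and 497 normalized counts in healthy livers, 175, 155 and 199 in untreated HCC and 438, 350 and 264 in miR-22-treated HCC. Its log2 fold change was -1.54 ± 0.17 (adjusted p = 7.13e-06) in untreated HCC and 0.99 ± 0.17 (adjusted p = 0.00164) after treatment. Aph1b was also called higher after treatment (0.88 ± 0.17), and the reads of these close paralogs may not have been separated fully. Of the 7 glycosyltransferases that modify the receptor, Poglut2 was called higher in untreated HCC (0.72 ± 0.12) and none was called after treatment.

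Rbpj itself had a log2 fold change of -0.10 in untreated HCC against healthy livers, with a 95% confidence interval of -0.48 to 0.28. Of the 9 tested genes of the nuclear activator complex, the coactivators Maml2 (0.81 ± 0.26) and Maml3 (0.86 ± 0.25) were called higher in untreated HCC and none was called after treatment. The call of Maml2 was lost without healthy replicate 1 (adjusted p = 0.075) or untreated replicate 2 (0.0895), and that of Maml3 without healthy replicate 3 (0.0606). Of 13 corepressors, Tle3 and Ctbp2 were called higher in untreated HCC and Tle2 lower. Tle3, a Groucho-type corepressor that Hes proteins recruit, had 226, 214 and 252 normalized counts in healthy livers, 962, 1175 and 853 in untreated HCC and 618, 494 and 579 in miR-22-treated HCC. The groups did not overlap, and Tle3 was 4.32-fold higher in untreated HCC (2.11 ± 0.14, adjusted p = 1.23e-07) and 1.77-fold lower after treatment (-0.82 ± 0.13, adjusted p = 0.00104). Tle1 (0.70 ± 0.13) and Cir1 (0.60 ± 0.10) were called higher after treatment. Tle1 fell under the fold threshold without treated replicate 3 (0.51), and Cir1 without untreated replicate 4 (0.582) or treated replicate 3 (0.573) and with DESeq2 (0.579).

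Of the 14 genes for trafficking and turnover of receptors and ligands, 6 were called higher in untreated HCC and Itch lower. Dtx4, an E3 ligase of the Deltex family, had 250, 254 and 253 normalized counts in healthy livers, 1067, 917 and 1004 in untreated HCC and 560, 463 and 478 in miR-22-treated HCC. It was 3.95-fold higher in untreated HCC (log2 fold change 1.98 ± 0.11 SE, adjusted p = 3.15e-08) and 1.99-fold lower after treatment (-0.99 ± 0.10, adjusted p = 8.98e-05). Itch, an E3 ligase that targets Notch for degradation, had 2636, 3476 and 3132 normalized counts in healthy livers, 1408, 1346 and 1275 in untreated HCC and 2172, 2328 and 1837 in miR-22-treated HCC. It was 2.29-fold lower in untreated HCC (-1.20 ± 0.12, adjusted p = 3.08e-06) and 1.57-fold higher after treatment (0.65 ± 0.12, adjusted p = 0.00217), the latter under the fold threshold without treated replicate 3 (0.58). For both genes the treated livers lay between the other 2 groups without overlap. Dtx3 (1.54 ± 0.19) and Neurl1a (2.93 ± 0.44), further ubiquitin ligases, were among the 6 that were higher in untreated HCC.

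**Figure D4:**
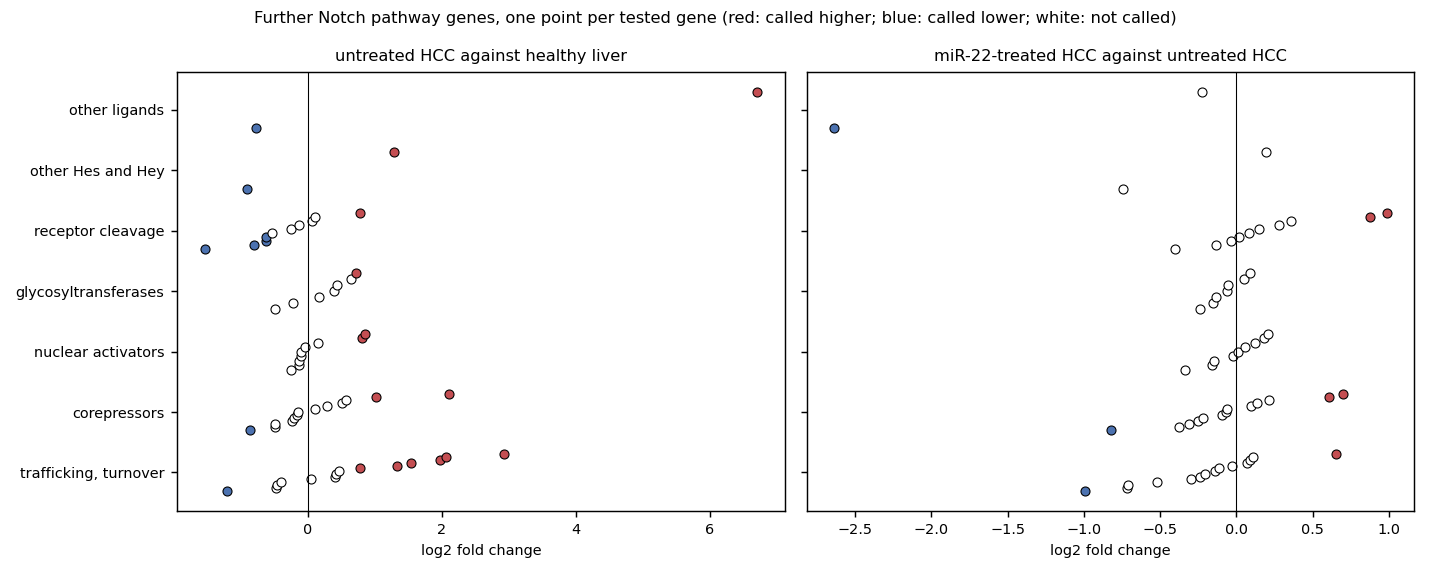
Log2 fold change of each tested gene of the 7 further pathway lists (1 point per gene, red where called higher, blue where called lower, white where not called) in untreated HCC against healthy livers and in miR-22-treated against untreated HCC. In the first comparison 14 genes are called higher and 8 lower, and in the second 5 higher and 3 lower, and the point furthest right is Dlk1, whose fitted value rests on 0, 0 and 1 counts in healthy livers and is no bound.

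Markers of the cell types that carry these receptors and ligands moved with the groups too. The summed normalized counts of 15 vascular endothelial markers, led by Kdr, ranged from 5526 to 6591 in healthy livers, from 4735 to 5274 in untreated HCC and from 5425 to 6319 in miR-22-treated HCC. Of these markers 2 were called higher and 3 lower in untreated HCC, and none after treatment. Notch4 was 1.34% to 1.82% of this sum in healthy livers, from 2.99% to 4.64% in untreated HCC and from 2.33% to 3.37% in treated HCC. Notch1 ranged from 10.5% to 13.5% of it in healthy livers and from 12.7% to 14.2% in untreated HCC. The 10 sinusoidal endothelial markers, led by Stab2, summed to between 10565 and 12617 in healthy livers, 7296 and 9595 in untreated HCC and 9472 and 11285 in treated HCC, with 1 called higher and 6 lower in untreated HCC, and 3 higher and 0 lower after treatment.

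The markers of bile duct and progenitor cells followed the same order as Jag1. Their sum ranged from 1422 to 1488 normalized counts in healthy livers, from 68163 to 126664 in untreated HCC and from 32530 to 55586 in miR-22-treated HCC. Spp1 was 31.0% to 43.6% of this sum in healthy livers, from 92.2% to 93.1% in untreated HCC and from 91.1% to 92.2% in treated HCC. Without Spp1 the ranges were 803 to 1024, 5333 to 8766 and 2901 to 4331. Of the 11 tested markers 9 were called higher in untreated HCC and 7 lower after treatment. Krt19, a defining duct keratin, was not called in untreated HCC (log2 fold change 0.89 ± 0.50 SE, adjusted p = 0.151). Sox9, a progenitor factor known as a Notch target, was 28.6-fold higher in untreated HCC and 2.96-fold lower after treatment. Set against the whole sum, Jag1 came to 6.17% to 7.81% of it in healthy livers, from 1.22% to 1.44% in untreated HCC and from 1.14% to 1.59% in treated HCC. Against the sum without Spp1 the order turned, with 10.3% to 11.5% in healthy livers, from 16.3% to 18.3% in untreated HCC and from 12.8% to 19.9% in treated HCC. The part of such cells in the levels of Jag1 and the target genes was not tested.

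The 15 markers of stellate cells, myofibroblasts and mural cells, led by Col3a1, summed to between 8956 and 10622 in healthy livers, 20622 and 24041 in untreated HCC and 17199 and 19862 in miR-22-treated HCC. Of these, 9 were called higher and 3 lower in untreated HCC, and 3 higher and 1 lower after treatment. Notch3 was 0.780% to 1.00% of this sum in healthy livers, from 1.16% to 1.31% in untreated HCC and from 0.935% to 1.15% in treated HCC. The log2 fold changes of these markers ran from -1.50 to 5.06 in untreated HCC, so the sum does not measure the number of a single cell type. The part of such cells in the level of Notch3 was not tested. The 11 hepatocyte markers, led by Alb, summed to between 2757670 and 2825210 in healthy livers, 1097390 and 1392000 in untreated HCC and 1704680 and 2133770 in treated HCC. Of these, 10 were called lower and 0 higher in untreated HCC, and 7 higher and 0 lower after treatment. The 10 macrophage markers, led by Clec4f, had sums of 10291 to 11322, 10228 to 11666 and 12152 to 13157, with 2 called higher and 2 lower in untreated HCC, and none after treatment.

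**Figure D5:**
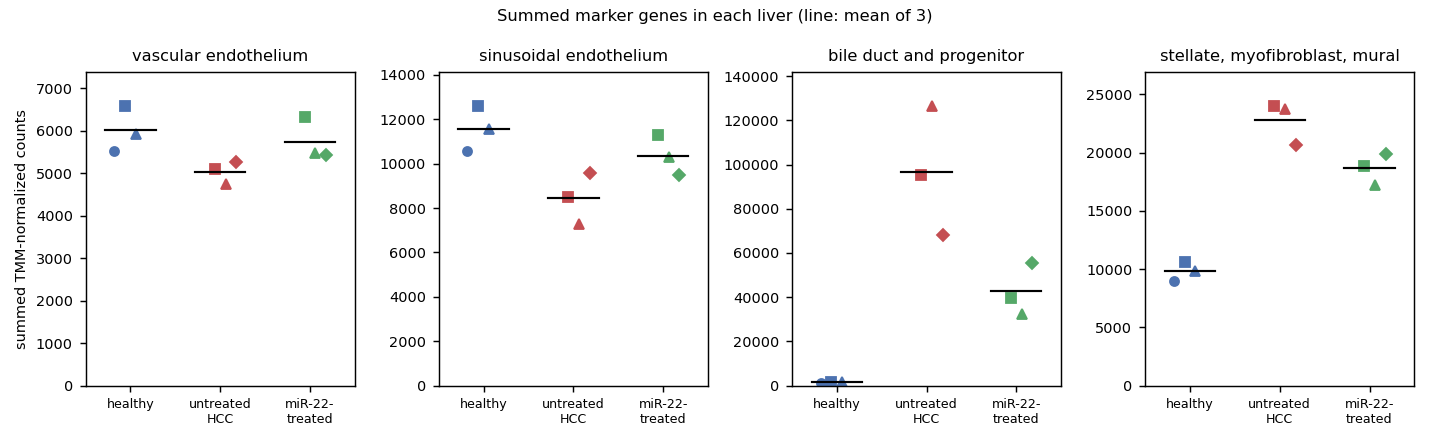
Summed normalized counts of 4 lists of cell type markers in each of the 9 livers (linear axes from 0), with 1 point per liver and a line at the mean of 3. The list of bile duct and progenitor markers has the widest gap between healthy livers and untreated HCC of these 4. The list of vascular endothelial markers runs from 4735 to 6591 over all livers, with untreated HCC below both other groups without overlap.

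Akt1 was read as a check of the labels, and its reads can come from the AKT plasmid as well as from the gene itself. It had 2002 to 2105 normalized counts in healthy livers, from 22700 to 32454 in untreated HCC and from 13027 to 21424 in miR-22-treated HCC, so it was 1.73-fold lower after treatment (adjusted p = 0.00786). Mir22hg, the host transcript of miR-22, had 1096 to 1375 normalized counts in healthy livers, from 257 to 399 in untreated HCC and from 542 to 634 in treated HCC. Mature miR-22 was not measured in these libraries.

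Genes with patterns like the other members were found by the same measure. Jag1 lay nearest to Relb (0.107), an NF-κB subunit, then Tead2 (0.127), a partner of YAP, and Fermt1 (0.164). Relb had log2 fold changes of 3.58 in untreated HCC against healthy livers and -0.96 after treatment, next to 3.57 and -1.02 for Jag1. Nrarp lay nearest to Mex3a (0.268), Bmp7 (0.271) and Tgfb2 (0.375). Notch3 lay nearest to Wdr6 (0.0929), Notch2 to Jup (0.0768) and Notch4 to Skp2 (0.0924). Jag2 lay nearest to Serinc2 (0.309) and Hey1 to Pmepa1 (0.378), at larger distances. Notch1 and Dll4, which varied little over the 9 livers, lay nearest to Atg12 (0.0266) and Sprtn (0.0865).

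Among the members themselves, Notch1 and Dll4 were the closest pair, with a root mean square difference of 0.160 on the log2 scale. Jag1 lay closest to Jag2 (0.600) and Nrarp to Jag1 (0.764), while Hes1 was closer to Notch3 (0.673) than to Nrarp (1.51). These distances describe 9 livers in 3 groups that share the group differences, and no test was run on them.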

How the data were processed

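Whole-liver RNA of 9 mice was read in pairs of 150 bases from libraries that do not mark strand, so reads of overlapping antisense genes cannot be told apart. The authors quantified genes with Salmon on GRCm39 and deposited whole-number counts per gene, not normalized (FastQC 0.11.7 and DESeq2 1.18 per the labels). A second table of scaled values was not used. Counts were fitted with edgeR 4.0.16 in R 4.3.3 (TMM, filterByExpr with a count minimum of 10, 3 groups in 1 fit, two-sided quasi-likelihood F test), and 15717 of 55401 genes were tested. A call needed both a fold change over 1.5 and a p, adjusted by Benjamini-Hochberg, under 0.05. Errors of fold changes are standard errors, and those of levels are SD. Total counts per library were 16664659 to 23908392, and replicates differed by more than sampling noise (chi-square per degree of freedom 6.13 to 28.4).

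Alternatives were DESeq2 1.42.0, its size factors in edgeR, no filter on low counts, only the compared groups, the replicate number as a block, no fold threshold, and leaving out each liver. The fitting script was tested on simulated data. Exon lengths, positions, promoters and 3′ UTRs came from GENCODE M39 (GRCm39), matched by gene ID, and miR-22 from a RefSeq table (GRCm38.p6).

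The members and lists were chosen with earlier results of these data known. Of 155 listed symbols 154 were found. Named besides the 10 members were every other ligand, Hes and Hey gene, up to 4 called genes of each further list by the smaller adjusted p, each marker list's most abundant gene, and the nearest genes by pattern. Rbpj, Aph1b, Tle1, Sox9 and Krt19 were named after their values were seen.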

Additional observations from a re-analysis of the deposited data

How the results depend on the processing

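Of the fold changes of the 10 genes, 136 of the alternative values in untreated HCC against healthy livers kept their direction and call, as did 113 in miR-22-treated against untreated HCC and 121 in miR-22-treated HCC against healthy livers. No call in untreated HCC against healthy livers was lost. After treatment 14 values lost the call and 10 gained it, and against healthy livers 13 lost and 2 gained it. Directions turned only for Notch1 and Dll4, which were not called in any comparison. For Notch1 in untreated HCC against healthy livers the log2 fold change was 0.0433 with the replicate block and ran from -0.0783 to 0.0238 over the fits without 1 liver, being above 0 without healthy replicate 1 and untreated replicates 3 and 4. After treatment Notch1 ran from -0.0617 to 0.0140 over these fits, being above 0 without replicate 2 of either group, and Dll4 from -0.190 to 0.0678, being above 0 without treated replicate 2. In treated HCC against healthy livers Notch1 was 0.0172 with the block, and Dll4 ran from -0.0163 to 0.245, being below 0 without healthy replicate 3 and treated replicate 3.

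The count of members called lower after treatment ranged from 1 to 4 over the 9 fits that each left out a liver, against 4 with all livers. It was 1, Jag1, without untreated replicate 3 and without treated replicate 3. It was 5 with DESeq2, with its size factors in edgeR, without the filter, with only the 2 groups and without a fold threshold. Over the fits without 1 liver, the count of further pathway genes called after treatment ranged from 5, without treated replicate 3, to 10, without treated replicate 4, against 8. It was 11 without a fold threshold. Without a fold threshold 35 further pathway genes were called in untreated HCC against healthy livers in place of 22, and 25 in treated HCC against healthy livers in place of 11, since the fold threshold alone was dropped.

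Same-numbered untreated and treated livers did not deviate together (r = -0.121, -0.131 and -0.235), so the replicate numbers were not taken as pairs. With the replicate number as a block, 7 members were called in untreated HCC, 4 after treatment and 5 in treated HCC against healthy livers, against 7, 4 and 6. The block ended the calls of Nrarp after treatment (-1.06, adjusted p = 0.0819), of Notch4 (0.65, adjusted p = 0.11) and of Hey1 (1.34, adjusted p = 0.272) in treated HCC against healthy livers. It added Notch2 after treatment (-0.59, adjusted p = 0.017) and Hes1 in treated HCC against healthy livers (1.41, adjusted p = 0.00722). Of the further pathway genes called in untreated HCC against healthy livers, Maml2 (0.69, adjusted p = 0.0572) and Dtx2 (0.62, adjusted p = 0.0505) lost their calls with the block, and Aph1b fell under the fold threshold (-0.57, adjusted p = 0.037). Replicate number 1 occurred among the healthy livers alone, so the block fitted that liver exactly. With the block, comparisons with healthy livers therefore rested on healthy replicates 2 and 3, much as when healthy replicate 1 was left out. The comparison after treatment rested on 3 livers a group. For Jag2, Hey1 and Nrarp the comparisons with healthy livers depend on 1 to 10 counts per healthy liver.

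Over all alternatives the adjusted p after treatment ran from 0.00321 to 0.0826 for Notch3, from 0.0154 to 0.215 for Jag2, from 1.95e-17 to 0.141 for Hes1 and from 7.09e-05 to 0.129 for Nrarp. In treated HCC against healthy livers it ran from 0.00112 to 0.11 for Notch4, from 0.000237 to 0.719 for Hes1 and from 0.00789 to 0.272 for Hey1. Without the filter, edgeR took the spread of all 29621 genes as common, which gave the lowest values for Hes1 and says nothing of the spread of single genes. Hey1 could not be tested in treated HCC against healthy livers with only these 2 groups, since it did not pass the filter there. The bound of Dlk1 without 1 liver, the share of Jag1 against the markers without Spp1 and the calls of the further pathway genes under these settings were computed after seeing the data.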
